A study of Mus musculus with 468 samples.

Results

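The DNA replication and mitosis genes described here are 40 genes picked by their symbols, 17 that act in S phase and 23 that act in mitosis, out of 23180 genes with counts. All 40 were found, and all 40 were among the 18380 genes with enough counts to be tested. They were chosen by name and not by a cut on any measured value, although earlier results of these data were known. The RNA came from adipose tissue of adult Diversity Outbred mice (DO, descended by random mating from 8 inbred founders). The paper names this tissue as visceral fat of the gonadal fat pad, while the labels say only adipose. All mice were kept on the same diet rich in fat and sugar. The labels give it as 45 percent fat, with no mouse on another diet. A mouse gave a single library. All libraries belong to one group: the methods speak of both sexes and several DO generations, but the labels tie no library to a sex, generation, age or batch and carry only a mouse number and a library number. No group of mice was therefore compared with another, and the question put to the data was how these transcripts varied among the mice and which cell lineage genes they varied with.

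A dividing cell first copies its DNA in S phase and then parts the copies in mitosis. Genes for copying are switched on ahead of S phase, largely by E2F factors, and genes for mitosis rise later, through factors that include Foxm1 and the complex that binds the promoter element called CHR. Mature adipocytes rarely divide, whereas adipocyte progenitors, endothelial cells, lymphocytes and macrophages of adipose tissue can, and macrophages of obese adipose tissue are known to proliferate in place. The lineage genes set beside the members were Adgre1 (F4/80, macrophages), Pdgfra (progenitors), Cdh5 (VE-cadherin, endothelial cells), Cd3e (T cells) and Cd22 (B cells). In bulk tissue, fewer cells of a type and less RNA per cell cannot be told apart.

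Total expected counts were 35.3 M to 137.8 M per library (median 82.04 M). Levels are given in CPM, counts per 1000000 counts after TMM scaling, and correlations and models used log2 CPM. The tissue's own markers were present throughout, with the adipocyte gene Adipoq at 499.6 to 3818 CPM, Adgre1 at 10.7 to 656.5 CPM (median 47.5), Pdgfra at 50.6 to 285.7 CPM, Cdh5 at 99.6 to 475.9 CPM, Cd22 at 0.181 to 30.4 CPM and Cd3e at 0.0890 to 10.7 CPM (median 1.03). Libraries with any count of the Y chromosome genes Ddx3y, Eif2s3y, Kdm5d or Uty (240 without mouse 180, described next) and libraries with none of these counts were also examined as separate sets, as were 5 blocks cut along the library numbers and 5 along the mouse numbers. With 1 library a mouse, every spread below joins the differences between mice with the error of the assay.

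3 libraries stood apart and bear on many results below. The summed level of 8 genes of male germ cells (Tcp11, Oaz3, Gapdhs, Crisp2 and others) was 2066 CPM in mouse 180 against a median of 2.58 CPM over all libraries, with 243.4 CPM in the next library. The summed level of 7 genes of ovarian cells (Cyp11a1, Inha, Lhcgr and others) was 1838 CPM in mouse 69 and 1166 CPM in mouse 32. Its median was 5.54 CPM, and the next library, with 65.3 CPM, was mouse 180. Libraries above 100 times the median of either sum were set apart. The library with 243.4 CPM of male germ cell genes lay below this cut and was kept. Testis and ovary hold dividing germ or follicle cells. In mouse 32, 36 of the 40 members lay above their 95th percentile over libraries, in mouse 69 it was 32 and in mouse 180 it was 26, while Adgre1 of the same libraries was below its median over libraries. Many calls and values that turn on these libraries are given with and without them. The others, including most highest levels and the partial r values, are over all libraries unless stated.

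As a class, the S phase genes had the higher median level and the smaller spread. Mean levels of the 17 S phase genes ran from 1.28 to 38.5 CPM (median 7.78), and those of the 23 mitotic genes from 1.28 to 20.01 CPM (median 3.56). Per kilobase of exon the medians of the mean levels were 2.06 and 0.802 CPM per kb. The mitotic genes varied more: the SD of log2 CPM over mice had a median of 0.92 among the mitotic genes (0.59 for Aurka to 1.26 for Bub1), of 0.47 among the S phase genes (0.21 for Mcm7 to 0.86 for Rrm2) and of 0.46 over all genes past the filter. Expressed as the ratio of the 95th to the 5th percentile of CPM, the median was 8.01 for mitotic genes, 2.94 for S phase genes and 2.69 for all genes. The lowest count of any member in any library was 4 (Bub1), and the lowest of an S phase gene was 12.

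Among the genes that load the replicative helicase, Mcm7 (lowest 13.2, median 19.6, highest 56.1 CPM) and Mcm4 (8.58, 15.5 and 29.3 CPM) were the steadiest. Mcm2 ran from 2.55 CPM through a median of 5.78 CPM to 20.7 CPM, Mcm5 from 1.54 through 6.84 to 23.7 CPM, Mcm3 from 4.43 through 11.3 to 37.2 CPM and Mcm6 from 2.80 through 12.9 to 47.5 CPM. Cdc6, which brings this helicase to origins, was low at 0.283 to 5.61 CPM (median 1.09). The subunits of a single ring of Mcm proteins therefore had unequal spreads, from a log2 SD of 0.21 (Mcm7) to 0.69 (Mcm5). Mcm7 shares its locus with Mir25, Mir93 and Mir106b and overlaps Ap4m1 and Cops6 on the other strand, and use of strand in the counting is not given in the sources used here, so its counts are less certain.

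Of the genes that make the helicase active, Cdc45 ran from 2.36 to 10.6 CPM (median 4.78) and Gins2 from 3.59 to 16.02 CPM (median 9.62). Pcna, the sliding clamp of DNA polymerases, had the highest mean level of all members per kb of exon, at 16.04 CPM per kb (lowest 21.9, median 36.01, highest 87.03 CPM). Pcna (ENSMUSG00000027342) lies on the minus strand at chr2:132249162-132253314. The pair of subunits of ribonucleotide reductase, which makes deoxynucleotides, parted: the large subunit Rrm1 was steady (18.2, 26.2 and 57.9 CPM, log2 SD 0.22), whereas the small subunit Rrm2 was variable (0.854, 3.11 and 14.5 CPM, log2 SD 0.86), and their mean levels were 2.42 and 1.36 CPM per kb of exon. The other genes of nucleotide supply were Tyms, thymidylate synthase (5.77, 13.6 and 27.2 CPM), Dut, which clears dUTP (1.77, 4.83 and 10.1 CPM), and Tk1, the thymidine kinase of dividing cells (1.41, 4.16 and 14.8 CPM). Uhrf1, which guides DNA methylation to newly copied DNA, had the widest spread of the S phase genes with a ratio of 7.14 between its 95th and 5th percentiles (0.655, 3.88 and 28.6 CPM). Chaf1b, a subunit of the assembly factor that lays histones on new DNA, ran from 0.201 to 4.797 CPM (median 1.08).

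Per kb of exon the mitotic genes with the highest mean levels (1.99 and 1.37 CPM per kb) were Mki67, the proliferation marker Ki-67 that coats mitotic chromosomes (lowest 2.06, median 14.1, highest 97.8 CPM), and Top2a, the topoisomerase that untangles them (1.37, 9.01 and 69.5 CPM). Mki67 (ENSMUSG00000031004) lies on the minus strand at chr7:135689784-135716361 and Top2a (ENSMUSG00000020914) at chr11:98992943-99024189 of GRCm38, the build of the files. The mitotic kinase Cdk1 ran from 0.693 to 15.3 CPM (median 3.29). Its cyclin partners reached down to 0.673 (Ccna2), 0.126 (Ccnb1) and 0.0930 CPM (Ccnb2) and up to 22.4, 17.5 and 25.1 CPM, around medians of 3.16, 1.33 and 1.31 CPM. Foxm1 ran from 0.897 to 48.6 CPM (median 3.82). The checkpoint kinase gene Bub1 had the widest relative spread of all members, from 0.0549 through 0.843 to 21.7 CPM, with a ratio of 19.99 between its percentiles. Birc5, a survivin that sits with Aurkb on the inner centromere, ran from 0.135 to 9.32 CPM (median 1.25). Among the 8 genes of the spindle and of cytokinesis (Cenpe, Cenpf, Kif11, Kif20a, Kif23, Tpx2, Nusap1 and Prc1) medians lay between 2.63 CPM (Cenpf) and 4.68 CPM (Prc1), and the genes of mitotic exit, Cdc20 and Ube2c, had medians of 1.61 and 2.4995 CPM.

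**Figure D1:**
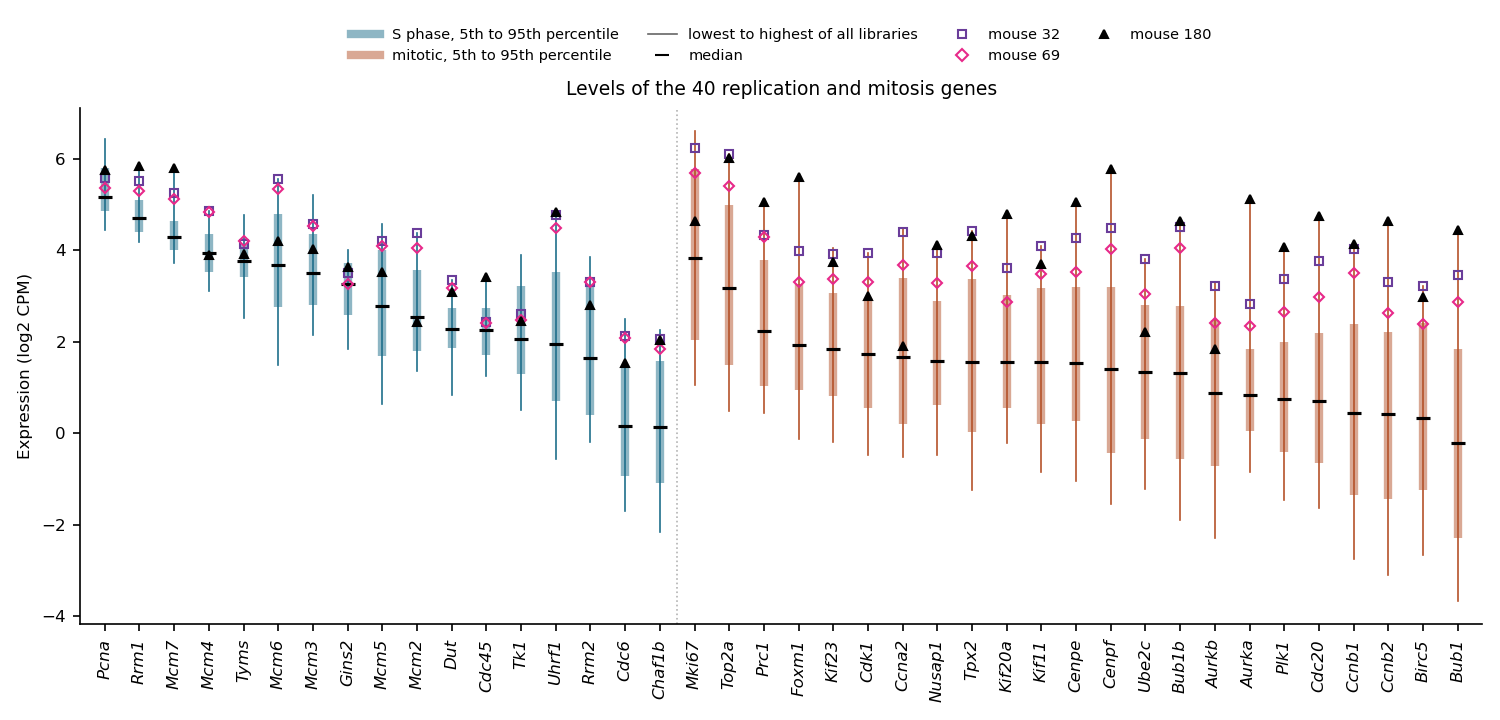
Log2 CPM of each of the 40 members over all libraries, S phase genes on the left and mitotic genes on the right, each ordered by median. Thin lines run from the lowest to the highest library, thick bars from the 5th to the 95th percentile, and black ticks are medians; the bars of mitotic genes are longer (median log2 SD 0.92 against 0.47), and the symbols of mice 32, 69 and 180 sit at or near the top of many lines, most of all for Aurka, where mouse 180 reached 34.7 CPM.

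Mouse 180 was the highest library for 17 members and mouse 32 for 10. Leaving mice 32, 69 and 180 out lowered the highest value of Aurka, the spindle pole kinase, from 34.7 to 5.39 CPM, of Bub1 from 21.7 to 6.80 CPM, of Cenpf from 55.2 to 20.4 CPM, of Foxm1 from 48.6 to 17.4 CPM and of Mcm7 from 56.1 to 31.8 CPM. The highest values of Ccnb1 (17.5 to 11.1 CPM), Ccnb2 (25.1 to 10.1 CPM) and Uhrf1 (28.6 to 18.6 CPM) fell likewise. Mki67 was not highest in these libraries. It peaked at 97.8 CPM in another library, beside 24.98 CPM in mouse 180, and that library was also the highest for Rrm2, Ccna2, Aurkb and Kif23. At the low end, Mki67 was 2.32 CPM and Top2a 2.24 CPM in the library with the lowest mean over the mitotic genes.

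The promoters of the members are shown because S phase and mitotic genes moved partly apart in these data. The 250 bases before the RefSeq start site (GRCm38.p6) were available for 15 S phase and 18 mitotic members and searched on both strands for E2F words (TTCCCGC or TTGGCGC), CHR words (TTTGAA or TTCGAA) and CCAAT. An E2F word was present in 7 of 15 S phase promoters (46.7%) and 3 of 18 mitotic ones (16.7%), against 9.57% of 12675 promoters of all genes past the filter. A CHR word was present in 3 of 15 (20%), 8 of 18 (44.4%) and 12.6%, and CCAAT in 10 of 15 (66.7%), 16 of 18 (88.9%) and 35.7%. On the reverse strand CCAAT reads ATTGG, which shares TTGG with one of the E2F words, and TTCGAA is its own reverse complement and was counted once. A match is only a match of letters.

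The windows of the S phase genes Mcm5 and Mcm2 and of the mitotic genes Top2a and Cdk1 follow, 5′ to 3′ along the gene, with E2F, CHR and CCAAT words in capitals. They were picked for their many matches among the 10 genes fixed as examples, so they need not be typical of their class. Tyms, Dut, Tk1, Birc5 and Nusap1 had none of these words. Mcm5 (chr8:75109259-75109508, plus strand) has 2 E2F words upstream of 2 CCAAT words, the nearer of which begins 22 bases before the RefSeq start, Mcm2 (chr6:88898781-88899030, minus strand) a CHR word at 70 and 1 CCAAT word, Top2a (chr11:99024190-99024439, minus strand) 4 CHR words, the nearest at 23, and 6 CCAAT words, and Cdk1 (chr10:69352913-69353162, minus strand) 1 E2F word and CHR words at 71 and 15. The gene start in the deposited annotation lay 60 bases from the RefSeq start for Mcm5 and 26 bases for Cdk1.
Mcm5: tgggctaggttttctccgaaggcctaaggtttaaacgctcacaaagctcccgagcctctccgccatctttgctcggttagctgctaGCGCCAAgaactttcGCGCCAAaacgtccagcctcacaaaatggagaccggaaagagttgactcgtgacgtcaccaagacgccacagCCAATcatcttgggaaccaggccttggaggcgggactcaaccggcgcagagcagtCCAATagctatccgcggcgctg
Mcm2: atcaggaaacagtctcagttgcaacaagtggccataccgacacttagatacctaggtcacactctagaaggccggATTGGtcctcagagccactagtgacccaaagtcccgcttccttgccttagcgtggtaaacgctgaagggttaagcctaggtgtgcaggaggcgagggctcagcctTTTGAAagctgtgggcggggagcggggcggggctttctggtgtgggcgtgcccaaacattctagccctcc
Top2a: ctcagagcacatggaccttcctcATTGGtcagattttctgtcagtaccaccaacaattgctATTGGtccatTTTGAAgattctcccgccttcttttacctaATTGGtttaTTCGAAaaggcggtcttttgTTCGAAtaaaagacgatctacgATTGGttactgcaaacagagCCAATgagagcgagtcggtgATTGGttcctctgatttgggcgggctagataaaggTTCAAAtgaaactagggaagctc
Cdk1: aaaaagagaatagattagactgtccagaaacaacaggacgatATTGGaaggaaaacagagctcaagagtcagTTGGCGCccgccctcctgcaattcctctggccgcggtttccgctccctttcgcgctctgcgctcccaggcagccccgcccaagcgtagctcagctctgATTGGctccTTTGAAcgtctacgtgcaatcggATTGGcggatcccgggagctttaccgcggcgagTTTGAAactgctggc

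The mitotic genes rose and fell together across mice, and the S phase genes did so less evenly. Pearson's r between log2 CPM of mitotic genes had a median of 0.880 (range 0.655 to 0.974), while that between S phase genes had a median of 0.435 (range -0.0386 to 0.876). Between the classes the median was 0.703 (range 0.0390 to 0.914), so that many S phase genes were closer to the mitotic genes than to their own class. Over all pairs of genes past the filter the median r was -0.0009, and Spearman's rho gave 0.885, 0.419 and 0.688 for the same 3 sets of member pairs. The closest pair was Top2a and Mki67, with r = 0.974. After regression on the 5 lineage genes the medians were 0.758 (mitotic), 0.318 (S phase) and 0.436 (between the classes). These values describe the same libraries and carry no p, since the members share the depth and cell makeup of each library.

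Within the 10 blocks of library or mouse numbers, the median r of mitotic pairs stayed between 0.851 and 0.897 and that of S phase pairs between 0.388 and 0.561. Among the libraries without Y chromosome counts it was lower, at 0.795 (mitotic), 0.291 (S phase) and 0.543 (between the classes) without mice 32 and 69, and among those with Y chromosome counts the mitotic and between-class medians were 0.895 and 0.740 without mouse 180. The difference between these sets of libraries was not tested.

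The mean z score of the S phase genes followed that of the mitotic genes with r = 0.908 ± 0.00851 (jackknife SE over mice) and rho = 0.891, and r was 0.866 to 0.938 within blocks. Given the 5 lineage genes it was 0.815. Rrm2 (r = 0.914 with the mitotic mean) and Uhrf1 (r = 0.908) followed the mitotic genes most closely, next to Cdc6 (0.830), Mcm5 (0.828), Mcm2 (0.809) and Mcm6 (0.806). Each of these was closer to the mitotic mean than was Cdk1 (0.776), the loosest of the mitotic genes, before Aurka (0.820) and Plk1 (0.854). Top2a (0.979), Tpx2 (0.972) and Mki67 (0.965) lay at the centre. For a mitotic gene, the mitotic mean in these values leaves out that gene itself.

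When all libraries were pooled, Mcm7, Dut and Tyms were only weakly related to the mitotic genes, with Rrm1 and Cdc45 (r = 0.463) between them and the rest. Mcm7 had r = 0.166 with the mitotic mean (rho = 0.0589), Dut 0.192 (rho = 0.113), Tyms 0.208 (rho = 0.134) and Rrm1 0.427 (rho = 0.298). With mice 32, 69 and 180 left out the values were 0.0772 for Mcm7, 0.140 for Dut, 0.190 for Tyms and 0.384 for Rrm1. Across blocks, r ranged from -0.178 to 0.417 for Mcm7, from -0.137 to 0.428 for Dut and from 0.180 to 0.580 for Rrm1. Mcm7, Dut, Tyms and Rrm1 are among the 5 genes with the smallest log2 SD, at 0.27 or less.

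Rrm1 was a special case, because its relation to the mitotic genes depended on the set of libraries. Among the 240 libraries with Y chromosome counts, without mouse 180, r of Rrm1 with the mitotic mean was 0.815, like that of Pcna (0.789). Among those without Y chromosome counts, without mice 32 and 69, it was 0.172, beside 0.633 for Pcna. Rrm1 was also the higher in the second set (median log2 CPM 4.78 against 4.62), whereas Pcna (5.10 against 5.28) and Mki67 (3.31 against 4.42) were the lower there. Tyms followed the same course at a lower level (0.413 against 0.0677), Dut had 0.302 against 0.0865 and Mcm7 had -0.0612 against 0.0455. None of these differences between the sets was tested.

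**Figure D2:**
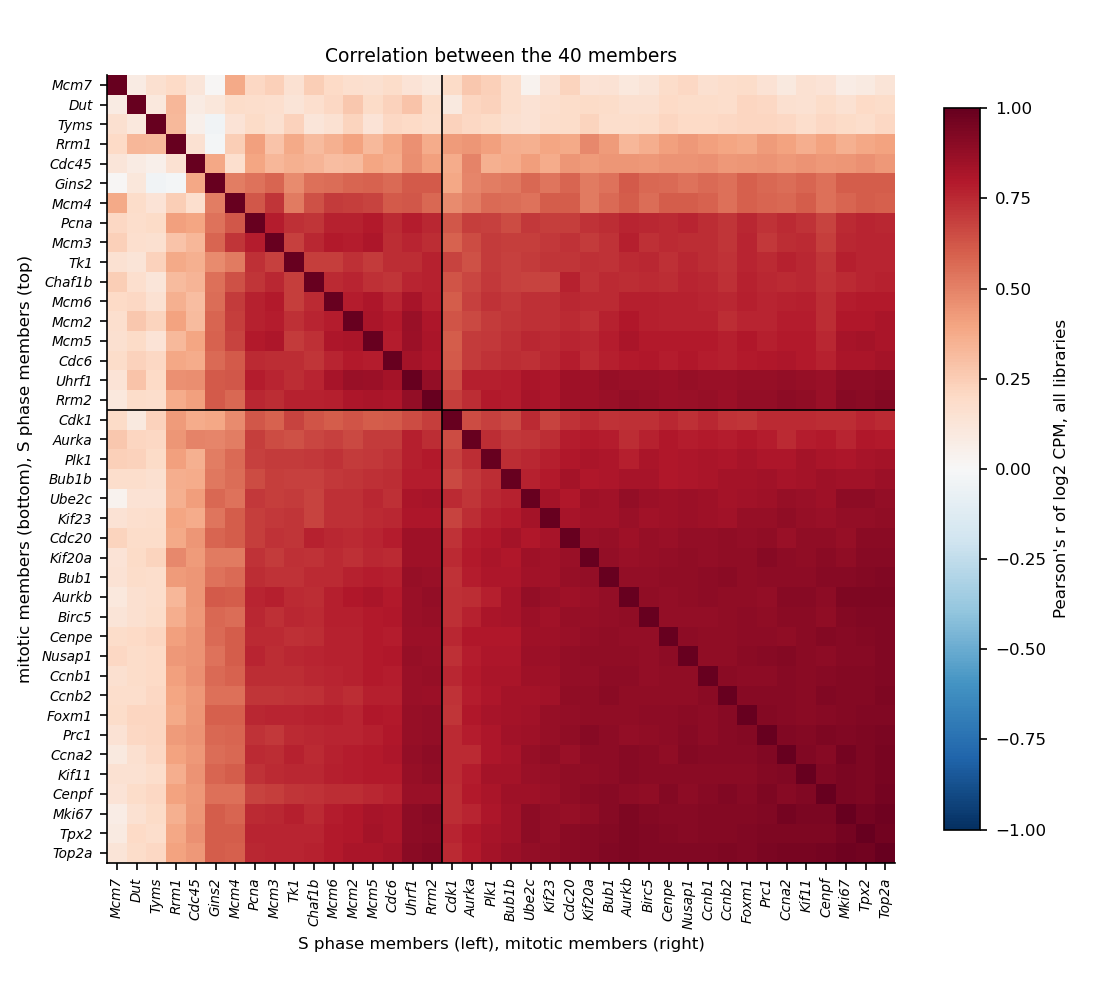
Pearson's r of log2 CPM over all libraries for each pair of the 40 members, from blue (-1) through white (0) to red (1), with S phase genes first and each class ordered by its correlation with the mitotic mean. The block of mitotic genes is deep red (median r 0.880), and the rows of Mcm7, Dut, Tyms and Rrm1 at the S phase end are pale.

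The members were next regressed jointly on Adgre1, Pdgfra, Cdh5, Cd3e and Cd22, to ask which lineage genes they tracked when the others were held fixed. In this edgeR model of counts a coefficient is the log2 change in a member per 1 SD of a lineage gene's log2 CPM (SD 0.90 for Adgre1), and p-values were adjusted by the Benjamini-Hochberg method over 18375 genes, with a threshold of 0.05. Adgre1 led. Of the members, 38 of 40 rose with Adgre1, 15 of 17 S phase and 23 of 23 mitotic genes, against 31.4% of all genes that rose with it. None fell, whereas 41.2% of all genes fell (0 members at an unadjusted p under 0.05, and 0 with limma or DESeq2). The median coefficient was 0.58 for mitotic and 0.33 for S phase genes, beside -0.02 over all genes.

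Mki67 had the largest coefficient at 0.77 ± 0.04 (SE over all libraries, edgeR adjusted p = 1.73e-52), which is 1.71-fold per SD of Adgre1. Bub1 and Birc5 followed with 0.73 each and Top2a with 0.69 ± 0.04 (adjusted p = 1.22e-42), while Plk1 (0.40), Cdk1 (0.39) and Aurka (0.33) were the lowest of the mitotic genes. Ccnb1 lay between them at 0.67. Among the S phase genes, Rrm2 (0.56), Uhrf1 (0.54) and Chaf1b (0.47) were highest, and Mcm5 (0.46), Mcm2 (0.34) and Pcna (0.25 ± 0.01, adjusted p = 5.31e-89) lay below them. Tyms was called with a coefficient of only 0.04 (adjusted p = 0.00674) and Rrm1 with 0.06 (adjusted p = 8.52e-08). The members not called were Mcm7 (0.01, adjusted p = 0.595) and Dut (-0.01, adjusted p = 0.759).

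Without mice 32, 69 and 180 the same 38 members rose with Adgre1 (32.2% of all genes), with medians of 0.62 for mitotic and 0.34 for S phase genes, and Bub1 became the largest at 0.86. Over all libraries, the Adgre1 coefficient was also set against those of the other lineage genes within the model. It was larger than that of Pdgfra for 14 S phase and 23 mitotic genes (32.5% of all genes). Against Cdh5 it was larger for 17 and 23 (29.7%), the 17 including Mcm7 and Dut, which were not called with Adgre1 itself. Against Cd3e it was larger for 14 and 23 (32%, with Dut the other way) and against Cd22 for 15 and 23 (22.7%). For the pooled libraries, these contrasts are not given without mice 32, 69 and 180. Across all libraries, Cd22 was the lineage gene closest to Adgre1 (r = 0.533), and no variance inflation factor of that full set exceeded 1.60.

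The other lineage genes gave smaller coefficients, and here the 3 libraries with gonad genes decided many calls. With Cd22, 10 S phase and 15 mitotic genes rose (22.5% of all genes) and none fell (20% of all genes; 0 members at an unadjusted p under 0.05, with limma or with DESeq2). The largest Cd22 coefficient was 0.17 ± 0.05 for Cdc20 (edgeR adjusted p = 0.00145), an activator of the ligase that ends mitosis. Without mice 32, 69 and 180 the same 10 S phase genes rose but only 3 mitotic genes, Plk1, Cdc20 and Foxm1, did (20.7% of all genes). The 12 mitotic genes whose call was lost include Mki67, Top2a, Ccnb1 and Bub1. Left out singly, mouse 180 gave 11 mitotic genes that rose with Cd22, and mouse 32 or mouse 69 gave 13. For fits that left out a single library, here and below, the share of all genes was not worked out.

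With Cdh5, the endothelial gene, 9 S phase genes fell (36.2% of all genes fell), among them Uhrf1 (-0.13 ± 0.03, adjusted p = 6.77e-05), Pcna (-0.04, adjusted p = 1.37e-05) and Dut (-0.06, adjusted p = 2.19e-05). Of the mitotic genes only Ube2c (0.08, adjusted p = 0.0302) and Kif23 (0.06, adjusted p = 0.0300) rose (20.9% of all genes rose), and Bub1 (-0.14) and Aurka (-0.09) fell. Without mice 32, 69 and 180, 21 of 23 mitotic genes rose with Cdh5 (22.1% of all genes), all but Cdk1 and Aurka, with a median of 0.10. Mki67 then had 0.13 ± 0.03 (adjusted p = 0.000472), and Bub1 turned from -0.14 to 0.09 (adjusted p = 0.0424). In the same fit 6 S phase genes fell with Cdh5 (33.7% of all genes): Mcm2, Mcm7, Pcna, Rrm1, Tyms and Dut. Leaving out mouse 32 alone gave 5 mitotic genes that rose with Cdh5, mouse 69 alone 3 and mouse 180 alone 2. No single one of the 3 libraries gave the change on its own, and their levels of gonad genes are those given above.

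With Pdgfra, the progenitor gene, 8 S phase and 10 mitotic genes fell (29.2% of all genes), most for Bub1 (-0.18 ± 0.05, adjusted p = 0.00139), Uhrf1 (-0.17 ± 0.03, adjusted p = 1.95e-06) and Aurka (-0.15 ± 0.03, adjusted p = 6.24e-07), and none rose (19.7% of all genes; 0 members at an unadjusted p under 0.05, with limma or with DESeq2). Without mice 32, 69 and 180, 9 S phase and 5 mitotic genes fell (27.8% of all genes), and leaving out mouse 180 alone left 1 mitotic gene. Cd3e, the T cell gene, was tied to few members. Dut alone rose with it (0.04 ± 0.01, adjusted p = 0.0191, against 8.61% of all genes), and Pcna, Cdc45, Bub1, Aurka, Kif20a, Prc1 and Foxm1 fell (10.6% of all genes). Without the 3 libraries only Pcna and Kif20a fell (8.76% of all genes), without mouse 180 alone 1 member fell and without mouse 32 alone 11 fell.

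**Figure D3:**
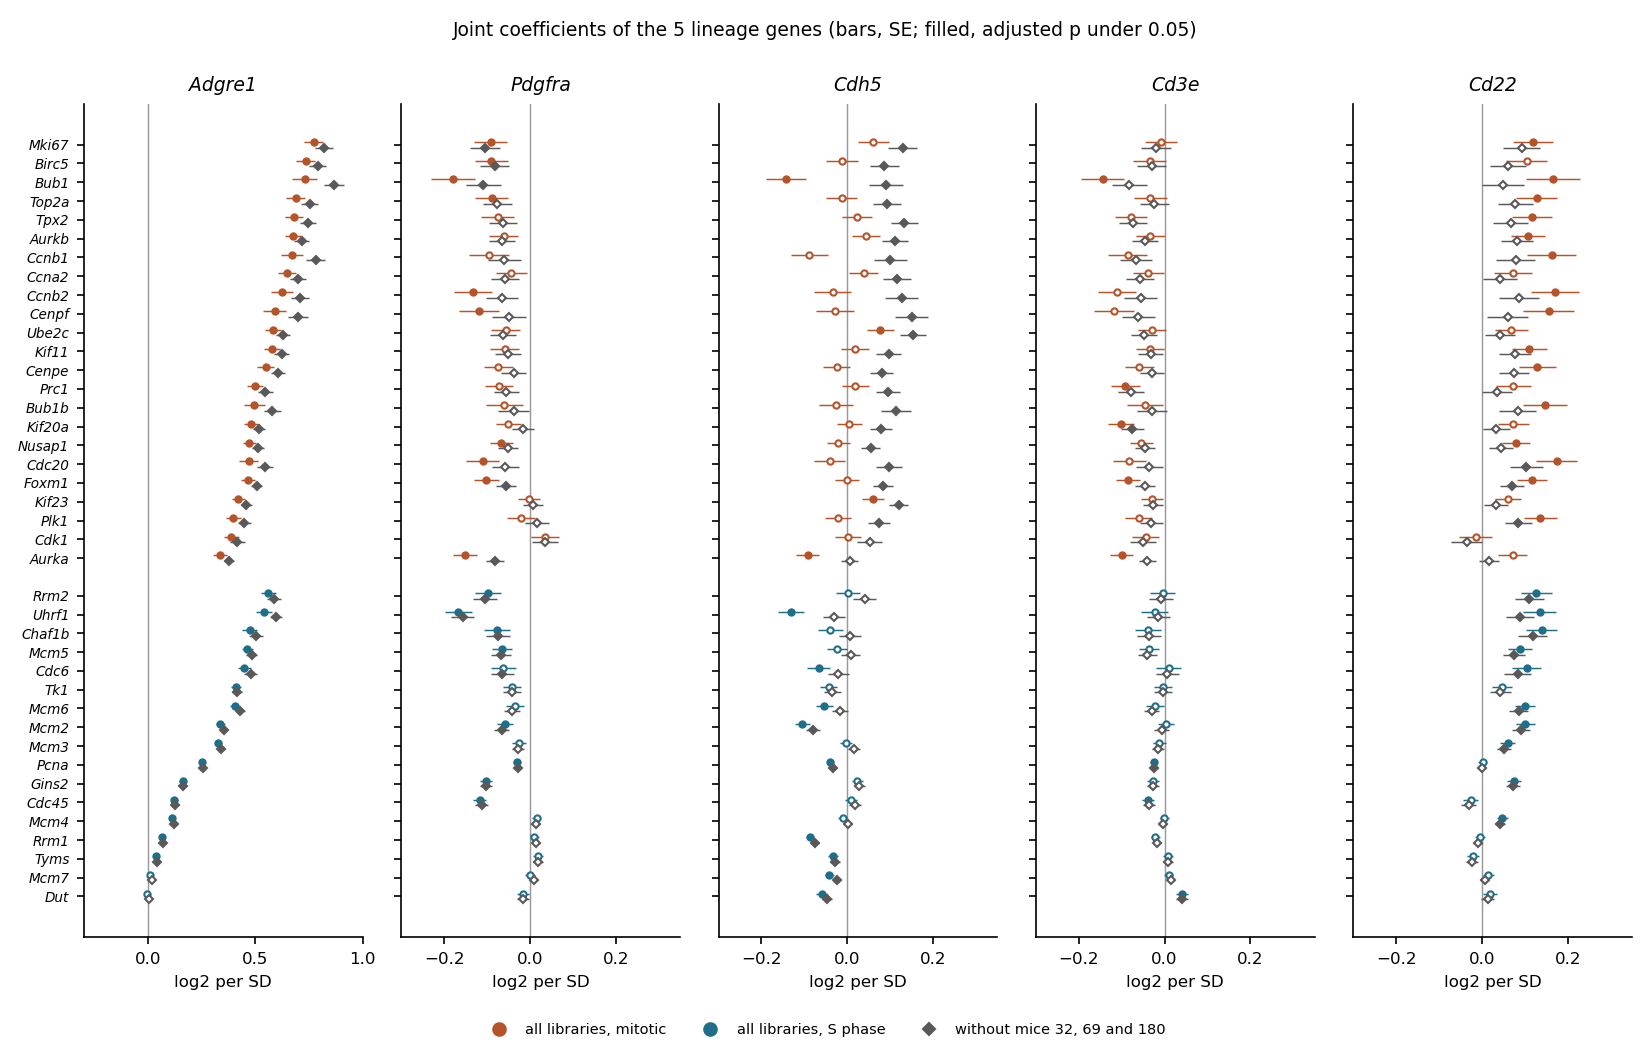
Coefficients of the joint edgeR model, in log2 change of each member per SD of the lineage gene, 1 panel for each of the 5 lineage genes with Adgre1 on a wider axis; bars are SE and filled symbols passed the threshold. Circles are all libraries and grey diamonds those without mice 32, 69 and 180; the Adgre1 panel runs from -0.01 (Dut) to 0.77 (Mki67) in the full set, and in the Cdh5 panel the diamonds of mitotic genes lie above 0 (median 0.10).

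The libraries with and without Y chromosome counts were then fitted separately, each without the libraries with gonad genes, and each lineage gene was scaled to its SD within the set (0.92 and 0.66 for Adgre1). All 23 mitotic genes rose with Adgre1 in both sets, with a median of 0.71 among libraries with Y chromosome counts and 0.34 among those without. 16 S phase genes rose in the first set (29.2% of all genes), all but Mcm7, and 12 in the second (22.3% of all genes), where Mcm7, Rrm1, Tyms, Cdc45 and Dut did not pass. Rrm1 had 0.16 ± 0.01 (n = 240, edgeR adjusted p = 3.33e-27) in the first set and 0.02 ± 0.01 (edgeR adjusted p = 0.27) in the second.

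With Y chromosome counts, all 23 mitotic and 9 S phase genes fell with Pdgfra given Adgre1 (10.5% of all genes), for example Mki67 at -0.26 ± 0.05. Pdgfra alone, by contrast, had r = 0.305 with the mitotic mean there. It also had r = 0.573 with Adgre1 in these libraries, above Cd22 (r = 0.403), whereas over all libraries Pdgfra had r = 0.260 with Adgre1. No member rose with Pdgfra in these libraries (10.6% of all genes; edgeR gave 0 at an unadjusted p under 0.05, the other tools not being run). With Cdh5, 11 S phase genes fell, Mcm2 most at -0.15 ± 0.02 (25.9% of all genes), and no mitotic gene rose (18.7% of all genes; edgeR gave 1 at an unadjusted p under 0.05, and the other tools were not run on this set). Without Y chromosome counts, all 23 mitotic and 3 S phase genes (Rrm2, Gins2 and Chaf1b) rose with Cdh5 (19.3% of all genes), with Mki67 at 0.23 ± 0.05 and Ube2c, which carries ubiquitin to mitotic cyclins, highest at 0.26. The S phase genes Mcm7 and Rrm1 fell with Cdh5 there (24.5% of all genes). In that set 4 S phase and 0 mitotic genes fell with Pdgfra (24.6% of all genes; 0 mitotic genes at an unadjusted p under 0.05 in edgeR, the other tools not being run), while the S phase genes Mcm4 (0.06) and Mcm7 (0.04) and the mitotic genes Plk1 (0.13) and Kif23 (0.11) rose with it (22.4% of all genes). The Adgre1 coefficient exceeded that of Cdh5 for 16 S phase and 23 mitotic genes in the first set (27.6% of all genes) and for 7 S phase genes and 1 mitotic gene in the second (7.98% of all genes). With Cd22, 2 S phase genes, Rrm1 and Rrm2, rose in the first set (4.5% of all genes) and Mcm2 in the second (3.87% of all genes). The difference of these coefficients between the sets was not tested.

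As a single number, the 5 lineage genes together gave R2 = 0.600 ± 0.0447 (jackknife SE) for the S phase mean and 0.568 ± 0.0458 for the mitotic mean over all mice. Adgre1 alone gave 0.569 and 0.542, and taking it out of the set of 5 cost 0.334 and 0.313, against a cost of 0.0128 or less for any of the others. The R2 was 0.656 and 0.630 without mice 32, 69 and 180. It was 0.724 and 0.710 among libraries with Y chromosome counts and 0.350 and 0.399 among those without, and in the latter the cost of removing Cdh5 was 0.0790 for the mitotic mean, next to 0.128 for Adgre1. Member by member, R2 had a median of 0.512 (0.0450 for Mcm7 to 0.663 for Pcna) against 0.160 over all genes, and Adgre1 was the costliest gene to remove for 36 of 40 members and for 53.3% of all genes. The exceptions were Mcm7, Rrm1 and Dut, for which it was Cdh5, and Cdc45, for which it was Pdgfra.

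Taken pair by pair, r of the members with Adgre1 had a median of 0.699 and ran from 0.0179 (Dut) to 0.800 (Pcna), and the median over all genes was -0.0151. A positive r passed a permutation test (two-sided, 100000 resamples, adjusted over all genes) for 38 of 40 members, against 37% of all genes. For Mki67 r was 0.744 and rho 0.740 (adjusted permutation p = 1.75e-05, from the smallest p the test can give, 1e-05). It was 0.756 without the 2 libraries farthest from the median of Adgre1, 0.652 to 0.825 within blocks, and 0.804 and 0.539 among libraries with and without Y chromosome counts, leaving out mice 32, 69 and 180. Pcna had r = 0.800 and rho = 0.698 (adjusted permutation p = 1.75e-05), 0.806 without the 2 farthest libraries and 0.728 to 0.890 within blocks. Rrm1 had r = 0.265 overall and 0.737 and -0.0186 within the sets. Cd22 had a positive r with 37 members (36.7% of all genes) at a median of 0.431. Alone it gave R2 = 0.250 for the S phase mean and 0.212 for the mitotic mean, and removing it from the set of 5 cost 0.0115 and 0.00676.

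**Figure D4:**
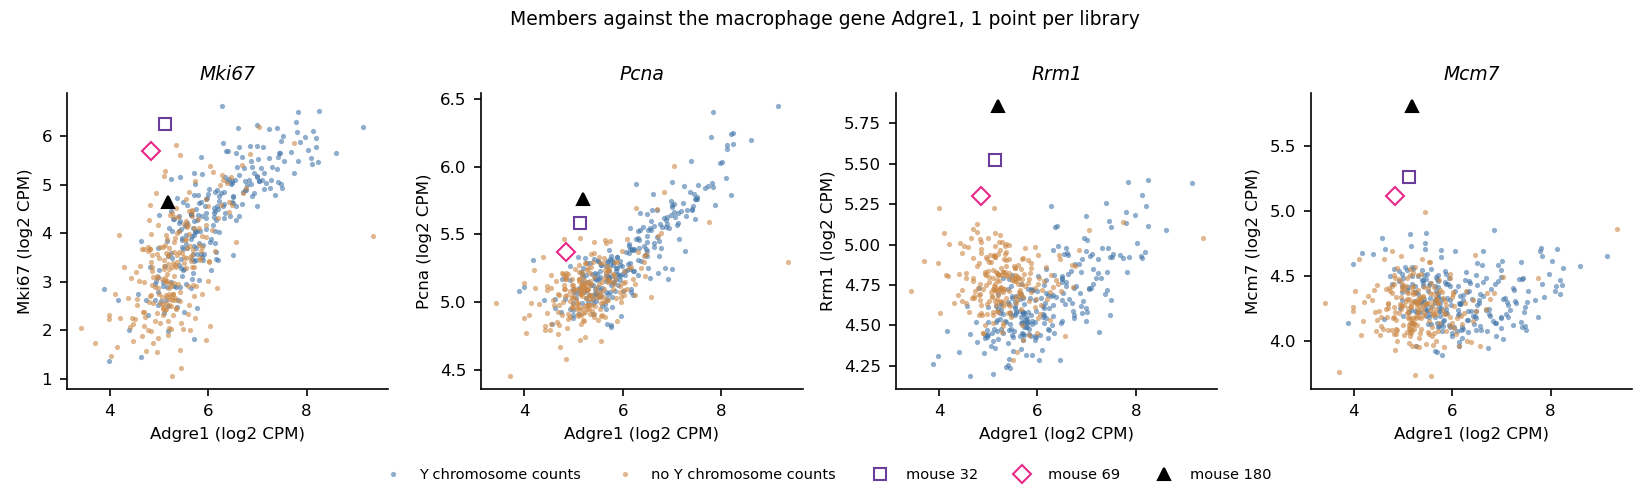
Log2 CPM of Mki67, Pcna, Rrm1 and Mcm7 against log2 CPM of Adgre1, 1 point per library, blue with and orange without Y chromosome counts. Mki67 (r = 0.744) and Pcna (r = 0.800) rise with Adgre1, Rrm1 rises in blue (r = 0.737) but not in orange points (r = -0.0186), and Mcm7 is flat. For Mcm7, mice 69 (34.8 CPM), 32 (38.4 CPM) and 180 (56.1 CPM) lie above all other libraries (at most 31.8 CPM). Their Adgre1 is below its median. Mki67 of mice 69 (51.6 CPM) and 180 (24.98 CPM) is below its 95th percentile (54.9 CPM). Pcna of mice 32 (47.8 CPM), 69 (41.3 CPM) and 180 (54.1 CPM) is below its own (55.9 CPM).

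Marker lists of each lineage were set beside the members in the same way. The mean of 16 macrophage genes had r = 0.758 with the mitotic and 0.769 with the S phase mean, and that of 10 genes of lipid-associated macrophages 0.758 and 0.764. The mean of 12 adipocyte genes fell as the members rose, with r = -0.620 and -0.734. Progenitor genes had 0.469 and 0.413, T cell genes 0.187 and 0.209, B cell genes 0.20 and 0.231, endothelial genes -0.0673 and -0.205, and mast cell, erythroid, mesothelial and neutrophil genes lay between -0.201 and 0.131. Pdgfra had r = 0.511 with the rest of the progenitor list, so it stands for its list less closely than the other lineage genes do. These had 0.819 (Cd22), 0.870 (Cd3e), 0.875 (Cdh5) and 0.934 (Adgre1). With the mitotic and S phase means, Adgre1 itself had r = 0.736 and 0.754, Cd22 0.460 and 0.4996 and Cdh5 0.156 and -0.0064. Pdgfra itself had 0.0792 and 0.0998, and Cd3e 0.0372 and 0.0668. Adgre1 was thus close to its list in its relation to the members, while the other lineage genes departed from theirs. Adgre1 and Adipoq themselves had r = -0.512. With Adipoq added to the model, 23 mitotic and 12 S phase genes fell with Adipoq (29.1% of all genes), and 23 mitotic and 14 S phase genes still rose with Adgre1 (28% of all genes). The Mki67 coefficients were then 0.64 for Adgre1 and -0.24 ± 0.04 for Adipoq. With Trem2, a receptor of lipid-associated macrophages, added in its place, 23 mitotic and 12 S phase genes rose with Trem2 (12.8% of all genes), most for Bub1 at 0.28 ± 0.06, and the 38 members rose with Adgre1 as before (29.1% of all genes).

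S phase genes also varied apart from the mitotic ones. Holding the mitotic mean fixed, the S phase mean had a partial r of 0.302 with Adgre1, 0.220 with Cd22, 0.0668 with Pdgfra, 0.0786 with Cd3e, -0.357 with Cdh5 and -0.382 with Adipoq. Outside the members, the genes closest to this remainder were Lig1 (partial r 0.587), the ligase that seals new strands, Rcc2 (0.544), Dnmt1 (0.537), the maintenance DNA methyltransferase that works with Uhrf1, Fen1 (0.513), a flap nuclease, and Cdt1 (0.4996), which loads the helicase with Cdc6. The genes closest to the mitotic mean were Ckap2l (r = 0.961), Iqgap3 (0.947), Nuf2 (0.946), Spag5 (0.946) and Hmmr (0.942), all from the 14653 genes averaging 1 CPM or more.

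The further lists of cycle genes were read against the same shares of all genes, of which 31.4% rose and 41.2% fell with Adgre1. Of 38 further S phase genes, 35 rose with Adgre1 and 1 fell, from Ung (-0.07 ± 0.03, edgeR adjusted p = 0.00826), a uracil glycosylase of DNA repair, to Clspn (0.73) and E2f8 (0.75). Of 51 further mitotic genes, 50 rose and none fell, with Pttg1, securin, the exception at -0.03 ± 0.09 (adjusted p = 0.808) and Hmmr the largest at 0.75 ± 0.05. Of 26 regulators of entry into the cycle, 12 rose and 10 fell, with a median of 0.01, the falling share being close to that of all genes. Cyclin D1 (Ccnd1) had 0.30 ± 0.04 (adjusted p = 1.12e-12) and E2f1 0.27, while the inhibitor Cdkn1c (p57) had -0.39 ± 0.03 (adjusted p = 5.54e-27) and Lin52, a part of the complex that binds CHR elements, -0.15. These counts were the same without mice 32, 69 and 180.

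With edgeR over all libraries, few members changed with the order in which mice and libraries were numbered. In a model with both numbers, Gins2 (0.05 ± 0.01 log2 per 100 mouse numbers, edgeR adjusted p = 0.000118), Pcna (0.03) and Cdc45 (0.02) rose with mouse number and Rrm1 fell (-0.02, adjusted p = 0.0391), 3 and 1 of 40 members against 11.7% and 12% of all genes. With mice 32, 69 and 180 left out, 7 members rose (12.7% of all genes) and none fell (10.8%), Rrm1 no longer being called (edgeR adjusted p = 0.122). The 7 were 6 of 17 S phase genes (Cdc45, Uhrf1, Mcm2, Mcm5, Pcna and Gins2) and 1 of 23 mitotic genes (Aurka). With Xist and Y chromosome genes as covariates, none rose (4.55% of all genes) and Mcm7 alone fell (7.97%). In that edgeR fit 7 members, against 4619 of 18380 genes, had an unadjusted p under 0.05 in either direction. Other tools were not run on it. No member changed with library number (0.131% of all genes rose and 0.136% fell with edgeR), where 1 member, Bub1b, passed at an unadjusted p under 0.05 and limma called 0.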

How the data were processed

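The deposited expected counts per gene came from polyA libraries: the authors aligned the reads of a pair as single ends to a transcriptome of the 8 founder strains (EMASE and GBRS, build GRCm38) and dropped genes under 1 read in 50% of samples. The deposited log2-scale values are the authors' variance-stabilised (DESeq2) version of these counts, whose share of their batch and sex correction could not be established; they served as an alternative. Counts were rounded to whole numbers, TMM-scaled and filtered (10 counts in 50% of libraries). Joint models used edgeR 4.0.16 (quasi-likelihood, R 4.3.3), with limma 3.58.1 and DESeq2 1.42.0 as alternatives. The lineage genes were left out of the genes adjusted over, and SE is the coefficient divided by the square root of F. Correlations used log2 CPM with a prior count of 2. Permutation p-values were adjusted over all genes, in place of the 200 member relations first planned. Named genes are 10 fixed examples, the 3 largest and 3 smallest per class and comparison, and genes named after their values were seen where a call was lost. Members and lists were chosen with earlier results of these data known, and the gonad gene lists, the analyses without mice 32, 69 and 180, the joint models within the Y chromosome sets and the model with Trem2 were chosen after seeing the data. Statistics were tested on simulated data. Library totals set counting error, which is largest for members near their lowest counts.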

Additional observations from a re-analysis of the deposited data

How the results depend on the processing

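The rise with Adgre1 of 15 S phase and 23 mitotic members stayed within 1.5 times these counts under every alternative run, DESeq2, limma, RLE size factors, no filter and the deposited variance-stabilised values included. Over all results, 70 alternative values moved. The share of all genes was not worked out for every alternative, so the counts below describe the members only. Settings chosen after seeing the data were those without mice 32, 69 and 180, singly or together, the joint models within the Y chromosome sets, and Trem2.

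In the joint models, S phase members higher with Cd22 (10) numbered 2 with marker list means, 2 with Y chromosome counts and 1 without them. Mitotic members higher with Cd22 (15) numbered 4 on the deposited values, 0 with list means, 3 without the 3 libraries and 0 in either Y chromosome set. Of S phase members, 8 fell with Pdgfra, 3 with Adipoq added and 4 without Y chromosome counts. Of mitotic members, 10 fell with Pdgfra, 1 with Adipoq added, 4 with list means, 5 without the 3 libraries, 23 with and 0 without Y chromosome counts, and 1 to 14 with mouse 32, 69 or 180 left out singly. S phase members lower with Cdh5 (9) numbered 4 with Adipoq added and 2 without Y chromosome counts. Mitotic members higher with Cdh5 (2) numbered 7 with limma, 12 with Adipoq added, 0 with list means, 21 without the 3 libraries, 0 with and 23 without Y chromosome counts, and 2 to 5 with single libraries left out. Members lower with Cd3e (7) numbered 3 with limma, 1 on the deposited values, 1 with counts capped at the 99th percentile, 1 with list means, 2 with Trem2 added, 2 without the 3 libraries, 1 with and 0 without Y chromosome counts, and 1 to 11 with single libraries left out. Some coefficients called in one of the settings changed sign. Those that passed the threshold with the new sign were that of Dut with Adgre1 (0.047 with Y chromosome counts), of Bub1 with Cdh5 (0.091 without the 3 libraries, 0.19 without Y chromosome counts) and of Aurka with Cdh5 (0.067 without Y chromosome counts). The others did not pass with it. Without Y chromosome counts these were, with Pdgfra, Chaf1b (0.036), Mki67 (0.011), Top2a (0.050), Ccnb2 (0.092), Bub1 (0.032), Birc5 (0.053), Cenpf (0.085), Nusap1 (0.035), Cdc20 (0.068) and Foxm1 (0.040), and with Cdh5, Mcm2 (0.0091), Mcm6 (0.052), Pcna (0.0088), Cdc6 (0.075) and Uhrf1 (0.076). With Cdh5 they were also Tyms (0.00070) and Bub1 (0.0094) with Y chromosome counts, Cdc6 (0.018) and Bub1 (0.025) with Adipoq added, Bub1 (0.047) with limma and Aurka (0.0055) without the 3 libraries. With Cd22 and marker list means they were Mki67 (-0.010), Aurkb (-0.0055) and Tpx2 (-0.0047).

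Without Y chromosome counts, R2 was 0.269 for the S phase mean and 0.312 for the mitotic mean (0.350 and 0.399 without mice 32 and 69), and with them, without mouse 180, 0.724 and 0.710. The loss without Adgre1 was 0.106 and 0.0939 without Y chromosome counts (0.157 and 0.128 without mice 32 and 69), and for the mitotic mean 0.458 with them (0.486 without mouse 180). With Adipoq added it was 0.157 and 0.159. The r of the class means was 0.854 without Y chromosome counts (0.833 without mice 32 and 69), the median r of S phase pairs 0.351 (0.291), of mitotic pairs 0.814 (0.795), of pairs between classes 0.567 (0.543) and of members with Adgre1 0.459 (0.498). With Y chromosome counts, mitotic pairs had 0.895 and pairs with Adgre1 0.764 without mouse 180, and pairs between classes 0.733 (0.740). Mitotic pairs had 0.898 on the deposited values. Members higher with mouse number (3) numbered 5 with limma, 0 with Xist and Y genes, 1 with the lineage genes and 7 without the 3 libraries, and members lower (1) numbered 4 with the lineage genes and 0 without the 3 libraries. The cause of these changes was not tested. No paired analysis was possible because there is a single group of mice.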
